A study of Mus musculus with 4 samples.

Results

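Txnip, a glucose-induced inhibitor of thioredoxin, and the glycolytic enzyme genes Gpi1, Pfkm and Ldha were followed in NIT-1 cells that received the nuclear receptor ERRγ. The rule took every row whose mouse Ensembl gene ID maps to one of these symbols, which gave 4 rows, 1 for each of the 4 genes, among 406 named rows of 373 genes. NIT-1 is a pancreatic β cell line from the NOD/Lt strain of mouse. Cells of passages 20 to 25 received the plasmid pRP[Exp]-CMVE>EGFP (control) or pRP[Exp]-EGFP >ERRγ, 8.3 µg with 16 µL of a liposomal reagent in both groups. This is transient overexpression of a plasmid gene in 1 cell line, and the time from transfection to harvest and the share of cells transfected were not stated in the labels. RNA from 2 replicates of each group was sequenced, 4 libraries of 16605943 to 18769899 reads, as recovered from the deposited reads and RPKM (reads scaled to the length of the row and the size of the library). The replicates are called biological in the labels, but no separate cultures are named, so the spread between them may be partly technical. There was no untransfected library, and every contrast is of the ERRγ plasmid with the control plasmid. Both plasmid names hold EGFP, and only that of the control holds CMVE, so the plasmids may differ in more than ERRγ.

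The 4 genes meet at the handling of glucose. Txnip is an arrestin-domain protein that binds thioredoxin and restrains glucose uptake, and its transcription is raised by glucose through the factors ChREBP and MondoA with their partner Mlx. In β cells it is known for its part in oxidative stress and cell death. Gpi1 turns glucose 6-phosphate into fructose 6-phosphate, and Pfkm, the muscle type of phosphofructokinase, phosphorylates that product in the committed step of glycolysis. Ldha, lactate dehydrogenase A, turns pyruvate into lactate, and is known as a gene kept low in healthy β cells, which send pyruvate to mitochondria. ERRγ is an orphan nuclear receptor known for driving genes of mitochondrial energy metabolism.

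Facts of the tables limit all that follows. How the listed rows were chosen is not given in the sources used here, and in 355 of 406 rows (87.4%) the RPKM values of the groups did not overlap, so a row that separates the groups is the usual case in this list. Row lengths recovered from reads and RPKM were whole numbers for all 406 rows, within 0.01 nucleotides, and each member's length equalled that of 1 annotated transcript of its gene (GENCODE M21, GRCm38), by which it is named. The transfected gene separated the libraries as labelled. Esrrg-201 measured 0.232 RPKM in control replicate 1 and 0 in control replicate 2, and rose to 141 and 78.6 RPKM in the ERRγ libraries (edgeR, adjusted p = 0.0342). Another row of that gene, Esrrg-203, gave 0 and 0.355 RPKM in control and 8.42 and 40.7 RPKM with ERRγ. It did not pass the threshold (edgeR, adjusted p = 0.0599). None of 47 marker genes of β cells and 8 other cell types had a listed row, so the labelled cell type could not be checked here. The column headers carry a suffix that differs between ERRγ replicate 1 and the other 3 libraries, _1.clean in the former and _2.clean in the latter. No source says what it means. If it names the read of the pair that was counted, ERRγ replicate 1 was counted from another read than the rest, so values without that library are given where they differ in call or by over 1.5 times.

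Txnip rose with ERRγ. The row Txnip-201 measured 162 RPKM in control replicate 1 and 147 RPKM in control replicate 2. With ERRγ it measured 243 RPKM in replicate 1 and 220 RPKM in replicate 2. Both ERRγ libraries lay above both controls, by at least 57.9 RPKM, while the replicates of a group differed by less. The means were 155 ± 10.4 and 232 ± 16.2 RPKM (SD, n = 2), a ratio of 1.50. In bulk RNA a larger share of cells with a transcript and more of it per cell cannot be told apart.

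Txnip was also higher in the reads that the tables count as unique, a term they do not define. Txnip-201 had 871 and 566 unique reads in the controls and 996 and 1036 with ERRγ. Scaled to library size in the same way as RPKM but not to length (RPM), these were 46.4 and 33.5 RPM against 60.0 and 59.3 RPM, a ratio of means of 1.49. The controls differed more from each other here than in all reads, and the ERRγ libraries hardly differed.

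Txnip passed the threshold in both tests, edgeR's quasi-likelihood test on all reads and on unique reads with the recovered library sizes. The unique reads are part of the total reads of the same libraries, so these tests are not independent. The log2 fold change was 0.58 ± 0.09 (SE) with all reads (edgeR, adjusted p = 0.0454) and 0.58 ± 0.20 with unique reads (edgeR, adjusted p = 0.0203). Of the rows tested, 63.5% had a lower log2 fold change than Txnip-201 with all reads, and 91.7% with unique reads. With all reads 25 of 375 rows passed (6.67%), 4 higher (1.07%) and 21 lower (5.6%). The other 3 higher rows were Esrrg-201, Lzts3-201 and Rapgef2-202, of which the last 2 were named after their values were seen. With unique reads 73 of 121 rows passed (60.3%), 11 higher (9.09%) and 62 lower (51.2%). TMM scaling moved that split to 27 higher and 12 lower with unique reads and to 2 higher and 5 lower with all reads. DESeq2 called 202 rows with all reads (53.9%), 111 higher (29.6%) and 91 lower, and 20 higher and 13 lower with unique reads. It scaled the libraries by factors taken from the listed rows, so scaling changed along with the test.

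The all-read call of Txnip was near the threshold. It was lost in 9 of 13 distinct alternatives, among them the removal of any library. With control replicate 1 or 2 removed the edgeR adjusted p was 0.0587 or 0.0683, and with ERRγ replicate 1 or 2 removed it was 0.143 or 0.117. With unique reads Txnip kept its call in 7 of 10 alternatives. The 3 that lost it were the removal of ERRγ replicate 1 (edgeR, adjusted p = 0.198) or 2 (edgeR, adjusted p = 0.332) and testing with no filter on low counts (edgeR, adjusted p = 0.0852). The direction was positive in all 23 of these settings (13 with all reads, 10 with unique reads), and the log2 fold change lay between 0.36 and 0.92. On its own, an exact permutation test of 2 libraries against 2 cannot go below p = 0.333 (two-sided).

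**Figure D1:**
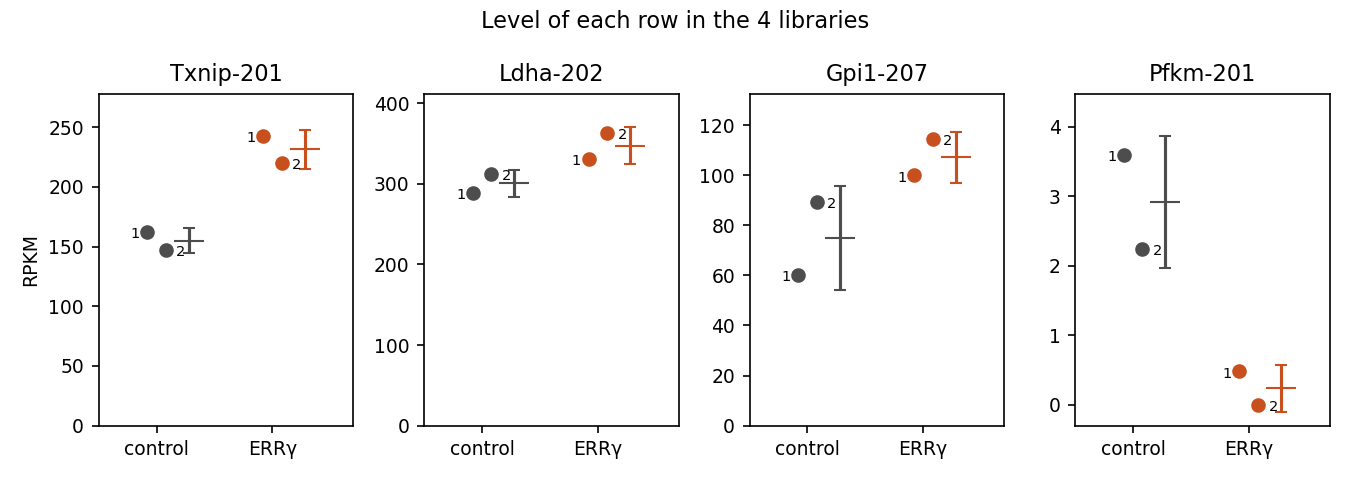
RPKM of the 4 member rows in each library (points, numbered by replicate) with the mean ± SD of each group (n = 2) beside them. Txnip-201, Ldha-202 and Gpi1-207 lie higher in both ERRγ libraries than in both controls, and Pfkm-201 lies lower.

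Little of the Txnip-201 sequence is found in that transcript alone. Txnip lies on chromosome 3 of GRCm38, where Txnip-201 (gene ENSMUSG00000038393) spans bases 96557960 to 96561857, plus strand, with 8 exons and 2795 nucleotides. Of its 2645 windows of 151 bases (the read length in the labels), 147 (5.56%) occur in no other annotated transcript, and all of them span the junction of exons 1 and 2, which lies after nucleotide 526, inside the coding sequence. There the other full-length coding transcript, Txnip-202, begins exon 2 at 96558889 in place of 96558892 and so holds 3 further bases. The other 2498 windows of Txnip-201 all occur in Txnip-202. The 2 junctions are shown because they are where Txnip-201 and Txnip-202 differ (plus strand, 40 bases on each side, chr3:96558446-96558931 with the intron left out); capitals mark the 3 bases in Txnip-202 only. No file places the unique reads of Txnip along the transcript, and the rule by which the tables call a read unique need not be that of these windows.
Txnip-201: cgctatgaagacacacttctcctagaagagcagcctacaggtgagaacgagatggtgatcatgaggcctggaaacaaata
Txnip-202: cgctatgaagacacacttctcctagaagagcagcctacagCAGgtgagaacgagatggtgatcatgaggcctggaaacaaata

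Unique reads were 10.2%, 8.13%, 8.83% and 9.64% of the reads of Txnip-201 in control replicates 1 and 2 and ERRγ replicates 1 and 2. The Wilson 95% intervals, which cover counting error only, ran from 9.61 to 10.9%, 7.51 to 8.79%, 8.32 to 9.37% and 9.10 to 10.2%. The controls held both the highest and the lowest share, so the groups overlapped in this share. Txnip-202 was not analysed here, as it has no listed row. The predicted gene Gm15441 is annotated on the opposite strand across Txnip. Its transcript Gm15441-202 (96555788 to 96566801) shares 306 windows with Txnip-201 as the reverse complement. No source says that reads were counted by strand, so reads from that stretch cannot be told apart between the 2 genes.

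Gpi1 was listed by a short transcript, Gpi1-207, and was higher with ERRγ without passing the test. Control replicate 1 gave 60.3 RPKM and control replicate 2 gave 89.4 RPKM. ERRγ replicate 1 gave 99.9 RPKM and ERRγ replicate 2 gave 114 RPKM. The groups did not overlap, but the gap of 10.5 RPKM between them was smaller than the difference between the controls. The means were 74.9 ± 20.6 and 107 ± 10.2 RPKM (SD, n = 2), a ratio of 1.43, and the log2 fold change was 0.52 ± 0.25 (SE; edgeR, adjusted p = 0.170). Control replicate 1 set much of this value: without it the log2 fold change was 0.26 ± 0.16, and without control replicate 2 it was 0.83 ± 0.17, neither past the threshold (edgeR, adjusted p = 0.278 and 0.0735). DESeq2 called the row higher (log2 fold change 0.72 ± 0.24, adjusted p = 0.00759), as it did 29.6% of rows. Its scaling, by factors taken from the listed rows, differed as well.

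The listed transcript is a fragment of the gene with 1 junction of its own. Gpi1-207 (gene ENSMUSG00000036427, chromosome 7, 34202206 to 34207898, minus strand, 933 nucleotides, 8 exons) is annotated as subject to nonsense-mediated decay. It starts in exon 11 of the coding transcript Gpi1-201, 22438 bases downstream of that transcript's start, and its second exon ends 85 bases before the end of exon 12. The 85 bases are not a multiple of 3. Of its 783 windows of 151 bases, 109 (13.9%), all across the junction of exons 2 and 3 (after nucleotide 110), occur in no other transcript, and the other 674 occur in Gpi1-201. Even coverage would place about 818 of its 5878 reads in those windows. The tables count 2 unique reads in all, both in ERRγ replicate 1, or 0.0340% of the reads. The junctions are shown because they are where Gpi1-207 and Gpi1-201 differ within their shared exons (minus strand, chr7:34205896-34207730 with the intron left out); capitals mark the 85 bases that Gpi1-207 skips.
Gpi1-207: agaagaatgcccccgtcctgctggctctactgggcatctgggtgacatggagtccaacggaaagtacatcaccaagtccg
Gpi1-201: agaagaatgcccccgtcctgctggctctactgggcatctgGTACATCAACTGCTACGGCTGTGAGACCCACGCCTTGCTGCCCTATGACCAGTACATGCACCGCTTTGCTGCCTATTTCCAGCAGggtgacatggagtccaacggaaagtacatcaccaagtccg

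Nearly all reads of the row were thus not counted as unique, and its RPKM is per length of the short transcript. Where the reads lie along the row was not analysed here. The rows Gpi1-201 and Gpi1-203, which hold the same 674 windows, are not listed.

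**Figure D2:**
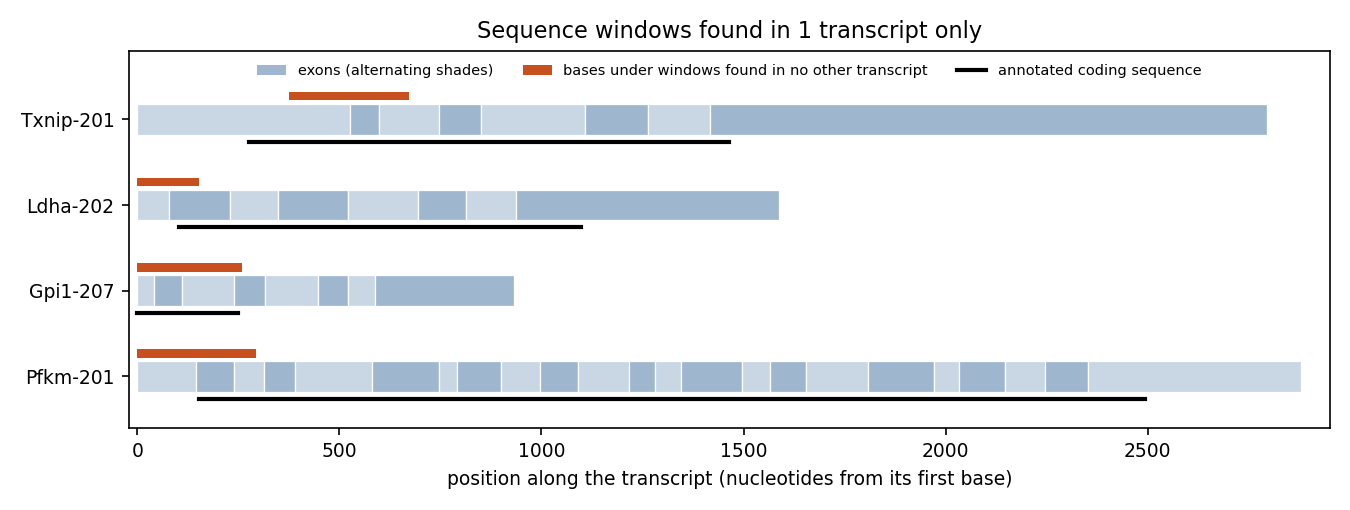
The 4 member transcripts drawn to scale in nucleotides, with exons in alternating shades, the coding sequence as a black line and, in orange, the bases under windows of 151 bases that occur in no other GENCODE M21 transcript. In Txnip-201 these lie around the junction of exons 1 and 2, and in the other 3 transcripts at the start.

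Pfkm was the 1 member that lay below both controls, at a low level. Pfkm-201 gave 3.59 RPKM in control replicate 1 and 2.24 RPKM in control replicate 2, against 0.481 RPKM in ERRγ replicate 1 and 0 in ERRγ replicate 2. These values came from 194, 109, 23 and 0 reads. In ERRγ replicate 2, 3 reads correspond to 0.0597 RPKM, taken as a rough upper limit for a count of 0 that covers counting error only. The groups did not overlap, and both ERRγ libraries were lower (means 2.92 ± 0.954 and 0.241 ± 0.340 RPKM, SD, n = 2). The log2 fold change was −3.59 ± 2.12 (SE; edgeR, adjusted p = 0.221), and the row passed in none of 13 distinct alternatives, where adjusted p lay between 0.0689 and 0.476. Without ERRγ replicate 1 the log2 fold change was −10.22 ± 3.35, against a single library at 0, a fitted value that depends on the prior count and is no bound. Without ERRγ replicate 2 it was −2.59 ± 2.08.

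Pfkm-201 differs from the other full-length transcripts at its start. Its span is bases 98108466 to 98132441 of chromosome 15 (gene ENSMUSG00000033065, plus strand, 2879 nucleotides, 23 exons), and its first exon of 146 nucleotides begins 15877 bases downstream of the start of Pfkm-202. Its 144 unique windows of 2729 (5.28%) all begin within that first exon and the remaining 2585 also occur in Pfkm-202 and Pfkm-205, which are not listed. Unique reads were 5 and 3 in the controls and 1 and 0 with ERRγ, 9 of 326 reads (2.76%), too few for the filter of the unique-read test. The level of Pfkm over all its transcripts was not analysed here.

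Ldha, the last enzyme of anaerobic glycolysis, was the most abundant of the 4 rows. Ldha-202 reached 289 RPKM in control replicate 1 and 312 RPKM in control replicate 2. It reached 331 RPKM in ERRγ replicate 1 and 363 RPKM in ERRγ replicate 2. Both ERRγ libraries lay above both controls, but the gap of 18.8 RPKM was smaller than the difference between replicates in either group. The means were 301 ± 16.6 and 347 ± 22.8 RPKM (SD, n = 2), a ratio of 1.16. The log2 fold change was 0.21 ± 0.09 (SE) and missed the threshold (edgeR, adjusted p = 0.141). It lay between 0.14 and 0.41 over 13 distinct alternatives and passed in 1, DESeq2 (0.41 ± 0.11, adjusted p = 0.00114). That fit differed from edgeR in scaling as well as in test.

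Hardly any Ldha read was unique: 2 and 1 in the controls and 1 and 0 with ERRγ, 4 of 35803 reads. Ldha-202 (gene ENSMUSG00000063229, chromosome 7, 46845839 to 46855627, plus strand, 1588 nucleotides, 8 exons) is 1 of 15 annotated transcripts of the gene, and 2 of its 1438 windows (0.139%) occur in no other transcript. Ldha-201 and Ldha-210 each hold 1359 of its windows, or 94.5%. How reads shared by the Ldha transcripts were assigned is not given in the sources used here, and the split between transcripts is uncertain.

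**Figure D3:**
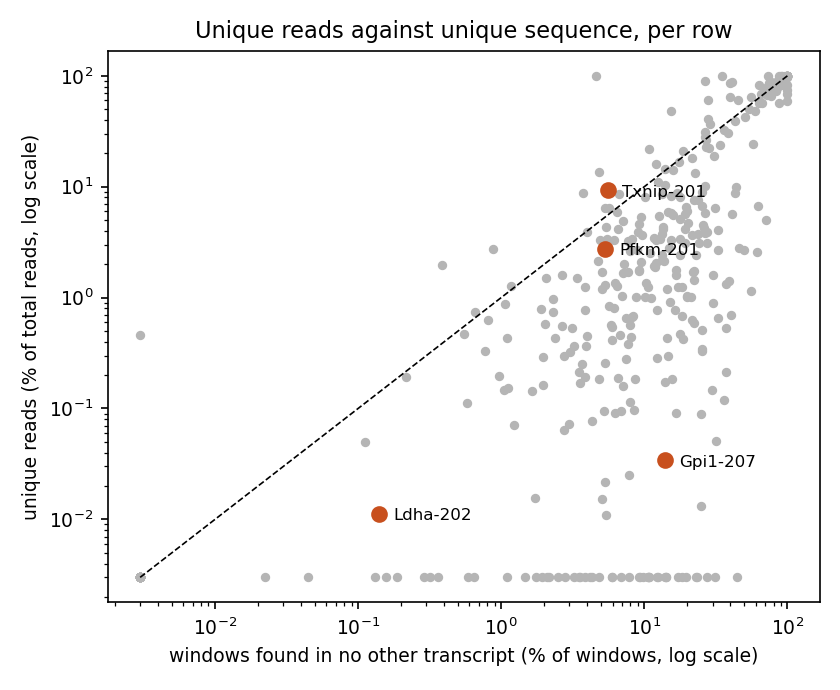
Share of reads counted as unique (4 libraries added) against the share of windows of 151 bases that occur in no other transcript, for 397 rows with 1 matching transcript, on log axes with 0 drawn at 0.003%; the dashed line marks equal shares. Txnip-201 lies above the line (9.25% of reads, 5.56% of windows), Pfkm-201 and Ldha-202 lie below it, and Gpi1-207 lies farthest below it of the 4 (0.0340% of reads, 13.9% of windows).

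Across the 397 rows with 1 matching transcript the median share of unique windows was 11.9% and the median share of unique reads 1.26%. In 48 rows, Txnip-201 among them, unique reads took a larger share than unique windows. Of 43 rows with no such window 1 had unique reads, so the windows only approximate what the tables call unique. Of 212 rows with over 10% unique windows, Gpi1-207 was among 22 with under 0.1% unique reads.

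The order of the 4 rows by RPKM, a scale per length, was Ldha-202, Txnip-201, Gpi1-207 and Pfkm-201 in every library. No neighbours in that order overlapped within a group. Among all 406 rows Ldha-202 ranked between 25 and 32 over the libraries, Txnip-201 between 39 and 64, Gpi1-207 between 66 and 104, and Pfkm-201 between 280 and 350.

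Counted together, 3 of the 4 rows lay above both controls and 1 below, in a list where 41.9% of rows lay above and 45.6% below. In the all-read test 1 of 4 passed, higher, where 1.07% of all rows did. The median log2 fold change of the 4 rows was 0.36, and that of all 375 rows tested was −0.27, or −0.13 with TMM. The members were chosen with earlier results of these data known, so these values do not test them as a set. With unique reads the median over 121 rows was −0.38, and −0.03 with TMM. TMM raised the fold changes of Txnip to 0.71 with all reads and 0.92 with unique reads and turned the direction of no member in the all-read test.

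**Figure D4:**
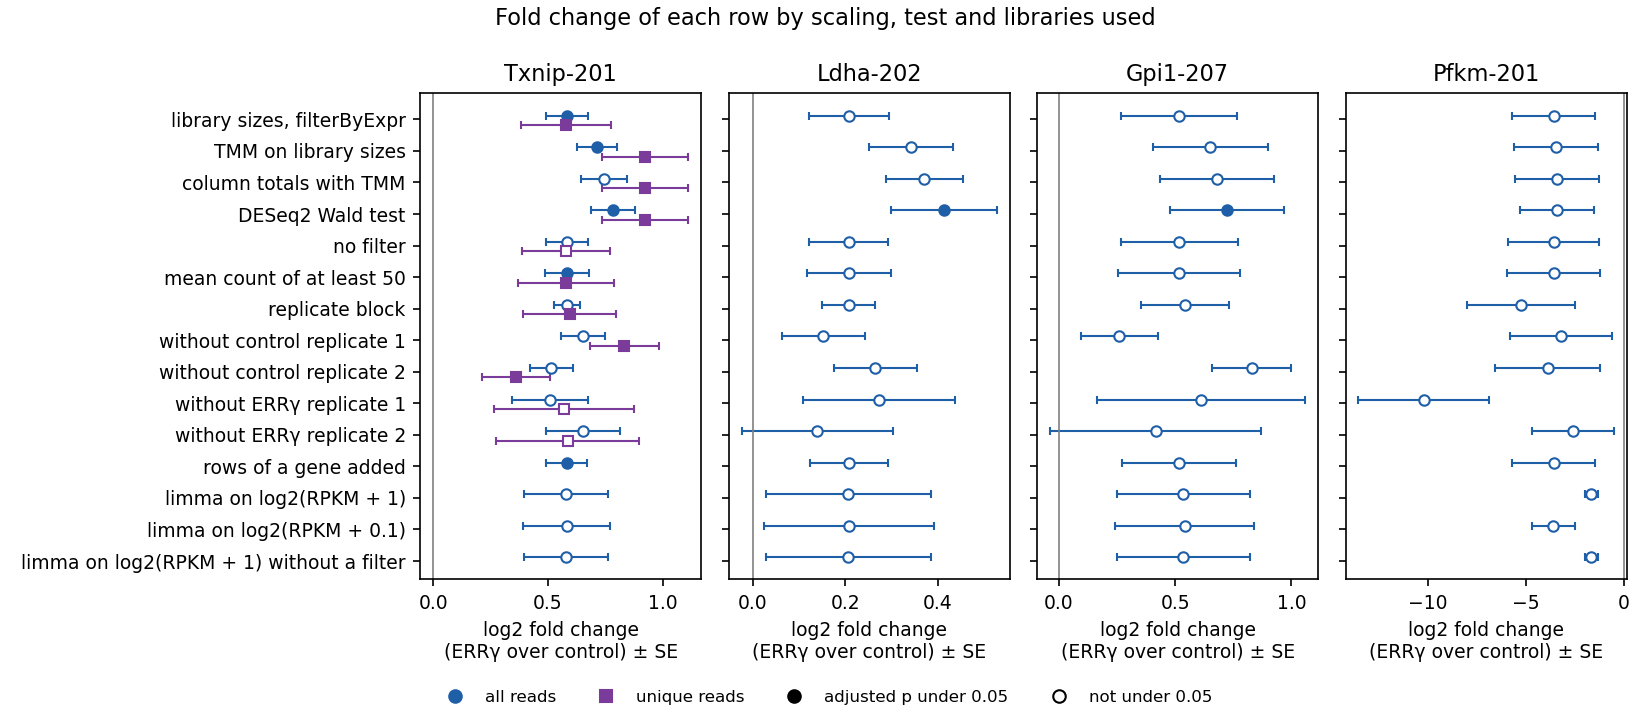
Log2 fold change (ERRγ over control, ± SE) of each member row under each scaling, filter, test and set of libraries, with all reads (circles) and, for Txnip-201, unique reads (squares); filled symbols have an adjusted p under 0.05. Txnip-201, Ldha-202 and Gpi1-207 stay above 0 and Pfkm-201 below 0 in all settings drawn.

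**Figure D5:**
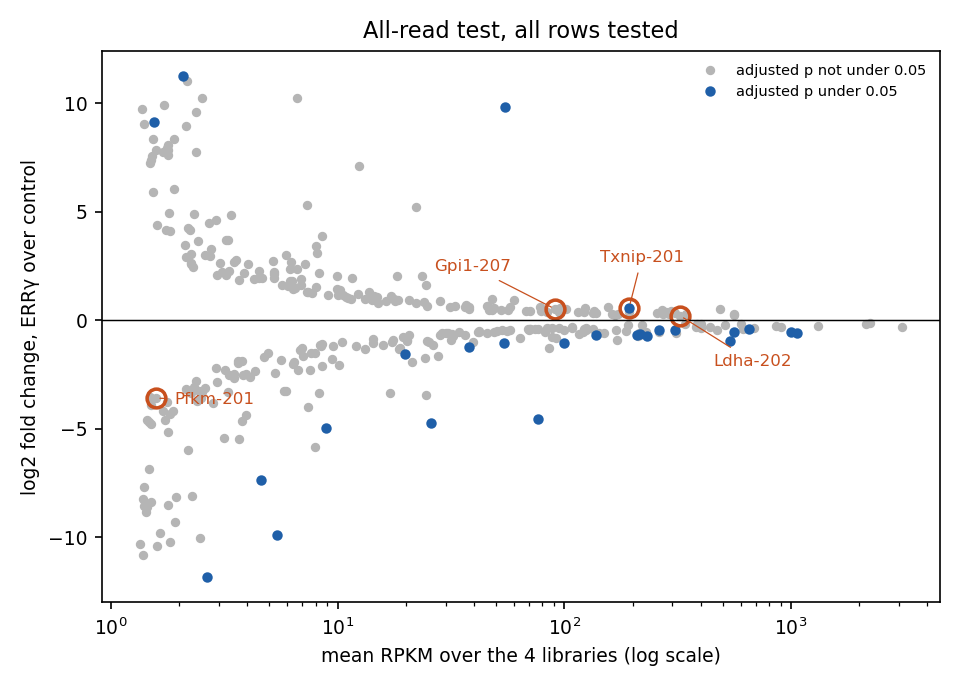
Log2 fold change against mean RPKM (log axis) for the 375 rows of the all-read test, with rows of adjusted p under 0.05 in blue and the 4 members circled. Txnip-201 is the member in blue, at a log2 fold change of 0.58, and at low RPKM the rows split into a band above 0 and a band below it.

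Few other genes of these pathways could be read. Of 147 genes on 7 lists for glycolysis, thioredoxin and Txnip relatives, glucose-induced genes, pyruvate and lactate handling, glucose transport and the pentose phosphate pathway, genes kept low in β cells, and hypoxia, 9 had a listed row. The glycolysis list had 36 genes, and its 3 listed rows were those of Gpi1, Pfkm and Ldha, 0 of which passed the edgeR all-read test (0 at an unadjusted p under 0.05, against 41.1% of all rows, and 0 with limma, against 7.14%). DESeq2 called 2 of them higher, Gpi1-207 and Ldha-202, where it called 29.6% of all rows higher. Txnip was the 1 listed gene of the 19 on the thioredoxin list and of the 24 on the glucose-induced list, whose other genes were not analysed here. The lists for pyruvate and lactate handling and for glucose transport had no listed row.

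The genes kept low in β cells gave the 1 list with several rows beside the members. It had 6 rows of 5 genes, 3 above both controls and 2 below, and 0 of 5 rows tested with all reads passed (edgeR; 2 at an unadjusted p under 0.05, near the 41.1% of all rows, and 0 with limma). DESeq2 called Ldha-202 and Igfbp4-205 higher and Acot7-201 lower, 3 of 5 where it called 53.9% of all rows. Zyx-201, for the focal adhesion protein zyxin, gave 30.0 and 43.7 RPKM in control and 25.9 and 23.1 RPKM with ERRγ. Acot7-201, for an acyl-CoA thioesterase, gave 3.81 and 2.04 RPKM in control, then 0 and 0.0402 RPKM with ERRγ, so both ERRγ libraries were near 0. Igfbp4, for a secreted binding protein of insulin-like growth factors, had Igfbp4-204 at 7.97 and 5.11 RPKM in control and at 18.1 and 11.1 RPKM with ERRγ. Igfbp4-205 was at 0 in both controls and at 1.60 and 5.50 RPKM with ERRγ. Smad3-202, for a signal carrier of TGF-β, overlapped between the groups, at 8.07 and 0 RPKM in control and at 0 and 1.20 RPKM with ERRγ. These rows went both ways around Ldha. On the hypoxia list Car9-204, of a carbonic anhydrase gene, was the 1 row beside Ldha, at 4.63 and 0.886 RPKM in control and at 0 and 0.171 RPKM with ERRγ, and was too low for the filter.

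The rows most like each member were found by the root mean square difference of centred log2(RPKM + 1) over the 4 libraries, among 405 other rows. For Txnip-201 they were Rab34-203 (0.0496), Ehmt2-201 (0.0608) and Dnajc19-205 (0.0917). Rab34-203 gave 43.0 and 36.2 RPKM in control and 59.5 and 57.2 RPKM with ERRγ. For Ldha-202 they were Crym-201 (0.0296), Sohlh1-201 (0.0392) and the processed pseudogene row Gm7860-201 (0.0698), and for Gpi1-207 Dph3-207 (0.0405), Phlda3-201 (0.0516) and Gps1-202 (0.0704). Phlda3-201, of a p53 target gene, gave 340 and 458 RPKM in control and 545 and 596 RPKM with ERRγ. For Pfkm-201 the nearest were Eif5-207 (0.103), Rerg-201 (0.174) and Dcaf11-206 (0.225).

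The promoters of Txnip and Ldha are shown because, among those of the 4 genes, only they hold any of the motifs searched. Whether the motifs bear on the levels of the rows was not tested. The 250 bases before the start nearest to each member transcript were read from RefSeq (GRCm38.p6), which had an entry for all 4 genes. Motifs were searched on both strands: the E-box CACGTG, the ERR half-site core AAGGTCA, and a pair of CACGAG spaced by 5 bases, the form of the carbohydrate response element of Txnip. The pair was chosen with the Txnip promoter in view, so its match there was fixed in advance. Capitals mark the matches.
Txnip (chr3:96557707-96557956, plus strand): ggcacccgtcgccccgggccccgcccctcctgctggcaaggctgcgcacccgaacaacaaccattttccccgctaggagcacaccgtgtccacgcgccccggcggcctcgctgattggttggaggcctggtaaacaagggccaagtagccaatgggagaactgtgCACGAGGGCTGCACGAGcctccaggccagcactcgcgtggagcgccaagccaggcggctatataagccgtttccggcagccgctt
Ldha (chr7:46845554-46845803, plus strand): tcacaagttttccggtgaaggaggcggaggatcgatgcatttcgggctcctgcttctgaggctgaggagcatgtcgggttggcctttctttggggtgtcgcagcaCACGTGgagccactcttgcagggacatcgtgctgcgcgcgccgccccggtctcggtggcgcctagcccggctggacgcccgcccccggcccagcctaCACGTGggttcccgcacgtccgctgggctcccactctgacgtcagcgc

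In Txnip the pair begins 85 bases upstream of the start, and it was found in 1 of 32851 promoter entries, that of Txnip. Ldha holds 2 copies of CACGTG, 145 and 48 bases upstream, a motif found in 6.02% of entries of this length. The promoters nearest to Gpi1-207 and Pfkm-201 hold none of the 3 motifs, and the one for Gpi1 lies 22438 bases from the first base of Gpi1-207. AAGGTCA was in none of the 4 windows and in 4.08% of all entries. The matches describe these letters and were not tested for binding.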

How the data were processed

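The authors deposited 1 table per library. Its columns are, per the file headers, RPKM and 2 read counts for each gene ID, of unique and of total gene reads. The submitters' processing notes name the build mm8; aligner, counting program and annotation were not stated there or in the labels, and no mm8 coordinate was used. Groups and replicate numbers came from the sample titles. The 3 rows without a gene ID (0.0121% to 0.0332% of listed reads) were left out of all fits. All 373 gene IDs matched a symbol.

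Library sizes were recovered from genes with a single annotated transcript, by dividing reads by RPKM and by the length of that transcript. The most frequent rounded value was taken, and whole row lengths served as a check afterwards. The quasi-likelihood test of edgeR (version 4.0.16, with R 4.3.3) was fitted to all named rows with these sizes, filterByExpr and no TMM, separately for total and unique counts, with Benjamini-Hochberg adjusted p under 0.05. Standard errors come from the fold change and F. The small p-values of the unique-read test lean on spread pooled over rows (prior degrees of freedom 31.6, against 2.50 with all reads). DESeq2 1.42.0, limma 3.58.1 on log2(RPKM + 1), other scalings and filters, a replicate block and leaving out each library were alternatives. DESeq2 did not use the recovered library sizes for scaling and estimated its own factors from the listed rows. The scripts were tested on simulated counts. These were set with much less spread than the all-read counts, whose fitted common dispersion was 0.534. That test therefore does not gauge error rates for the all-read calls. Replicates differed by more than counting noise (chi-square per degree of freedom 93.1 and 38.9).

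The members, lists, motifs and scaling were chosen with earlier results of these data known. A minimum mean RPKM of 1 for limma and for the search for nearest rows removed no row. Named rows are the members, Esrrg, the first 6 listed rows of each list by mean RPKM and the 3 rows nearest to each member, beside Lzts3-201 and Rapgef2-202, named after their values were seen. Windows were matched on both strands to GENCODE M21 transcripts.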

Additional observations from a re-analysis of the deposited data

How the results depend on the processing

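The direction of every member row held in all 13 distinct alternatives with all reads. With all reads 25 rows passed. The count was 7 with TMM on library sizes, 1 with column totals and TMM, 202 with DESeq2, 1 without a filter, 42 with a mean count of at least 50, 36 with rows of a gene added, 29 with limma on log2(RPKM + 1), 42 with limma on log2(RPKM + 0.1), and 1 to 2 with 1 library left out. With unique reads 73 rows passed, and the count was 39 with TMM, 41 with column totals and TMM, 33 with DESeq2, 23 without a filter and 10 to 98 with 1 library left out. With an arm of 1 library, that library was assumed to vary like the other group. The cause of these shifts was not tested.

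The all-read call of Txnip-201 was lost with column totals and TMM (log2 fold change 0.74, edgeR, adjusted p = 0.0588), without a filter (0.58, 0.0597), with limma on log2(RPKM + 1) with or without its filter, which removed no row (0.58 and 0.58, 0.128), with limma on log2(RPKM + 0.1) (0.58, 0.159), and with any library left out (0.51 to 0.65). The unique-read call was lost without a filter (0.58, 0.0852), and the log2 fold change was 0.36 to 0.83 with 1 library left out. With DESeq2 the all-read rows Ldha-202 (0.41) and Gpi1-207 (0.72) passed.

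The titles number replicates 1 and 2 in both groups, but nothing says that equal numbers share a culture or day, and libraries of the same number did not deviate together (correlation of deviations −0.04 over 328 rows). With the replicate block 1 row passed with all reads and 71 with unique reads, and Txnip-201 had a log2 fold change of 0.58 (edgeR, adjusted p = 0.0797) and 0.59 (0.0156). Depth limits Pfkm-201 most, which had at most 194 reads in a library. Ldha-202 had 8380 to 10079 reads per library and Gpi1-207 had 1056 to 1864. Hardly any of these were counted as unique, so total depth is not what limits their unique reads.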
